A study of Elaeis guineensis with 12 samples.

Results

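The 60 gene models described here were those whose RNA was lower in mantled than in normal oil palm florets in both organs studied, whichever libraries were set against each other. They were chosen from read counts alone, out of 26087 gene models. Counts were scaled to CPM, the count of a model per 1000000 reads assigned to models in the library, and the 13096 models with a mean of 5 CPM or more over the 12 libraries were taken further. Another 612 models were left out because their lowest normal staminodia library lay above their highest normal carpel library. Each of the remaining 12484 models received a score, log2 of the lowest normal CPM plus 1 over the highest mantled CPM plus 1, and the 60 highest scores were kept. The difference between mantled and normal palms was therefore the basis of the choice. Its values are given as a description, with no test.

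Mantling is a somaclonal variant of oil palm (Elaeis guineensis) that arises in palms raised by tissue culture. Its female flowers form extra carpel-like organs, called pseudocarpels, where the rudimentary male organs, the staminodia, would stand. Floral organ identity is set by combinations of MADS-box transcription factors, in which the B class acts with other classes to specify stamens, while its absence from the inner organs leaves carpels. The variant is known for loss of DNA methylation at the Karma retrotransposon, which lies in an intron of the B-class gene DEFICIENS. The deposited features carry gene-predictor IDs and no names, and 0 of these IDs matched the 37671 genes of the RefSeq gene table that was at hand. The members are therefore given by ID, with no function, and whether any of them belongs to these pathways was not determined. For the same reason the captured organs could not be checked against marker genes.

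All 12 libraries came from clonal palms at stage 3 of floral development, and the organs were cut from frozen sections by laser capture. The 4 groups were mantled staminodia (the pseudocarpel initials), mantled carpel, normal staminodia and normal carpel, with 3 libraries each. The mantled libraries came from 3 palms, and both organs of a palm carry the same palm ID. Normal replicates 1 and 2 came from different parts of a single inflorescence of normal palm 1, and normal replicate 3 came from normal palm 2, so the normal group holds 2 palms. Mantled palm 1 has an ID that begins with P291 and the other 4 palms have IDs that begin with P273, and the meaning of this prefix is not given. Libraries held 2121145 to 8066978 assigned reads, the fewest in mantled carpel 3 and the most in mantled carpel 2, so that 1 read was worth 0.124 to 0.471 CPM. Group means and SDs are over palms, n = 2 normal and n = 3 mantled, with the reads of normal replicates 1 and 2 summed.

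The members together took up a smaller part of the mantled libraries. Their summed level was 17870 to 22548 CPM in the normal libraries and 11301 to 12931 CPM in the mantled ones, which is 1.79% to 2.25% against 1.13% to 1.29% of assigned reads. The 2 most abundant members held a large part of this sum. Without them it was 10865 to 14859 CPM in the normal libraries and 6104 to 7453 CPM in the mantled ones. By construction the normal and mantled ranges of each member did not overlap. In these bulk samples fewer cells of a type and less RNA per cell cannot be told apart. Among the 12484 ranked models 71 had every normal library above every mantled one, which is 0.569%, and 139 (1.11%) had the reverse. Within staminodia alone the share with normal above mantled was 5.44%, and within carpel alone 5.22%. That balance depended on the scaling, since 109 were lower and 97 higher with TMM factors, and 103 and 98 with median-ratio factors. The median log2 ratio of mantled to normal palms over all ranked models was 0.13 in staminodia and 0.06 in carpel.

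**Figure D1:**
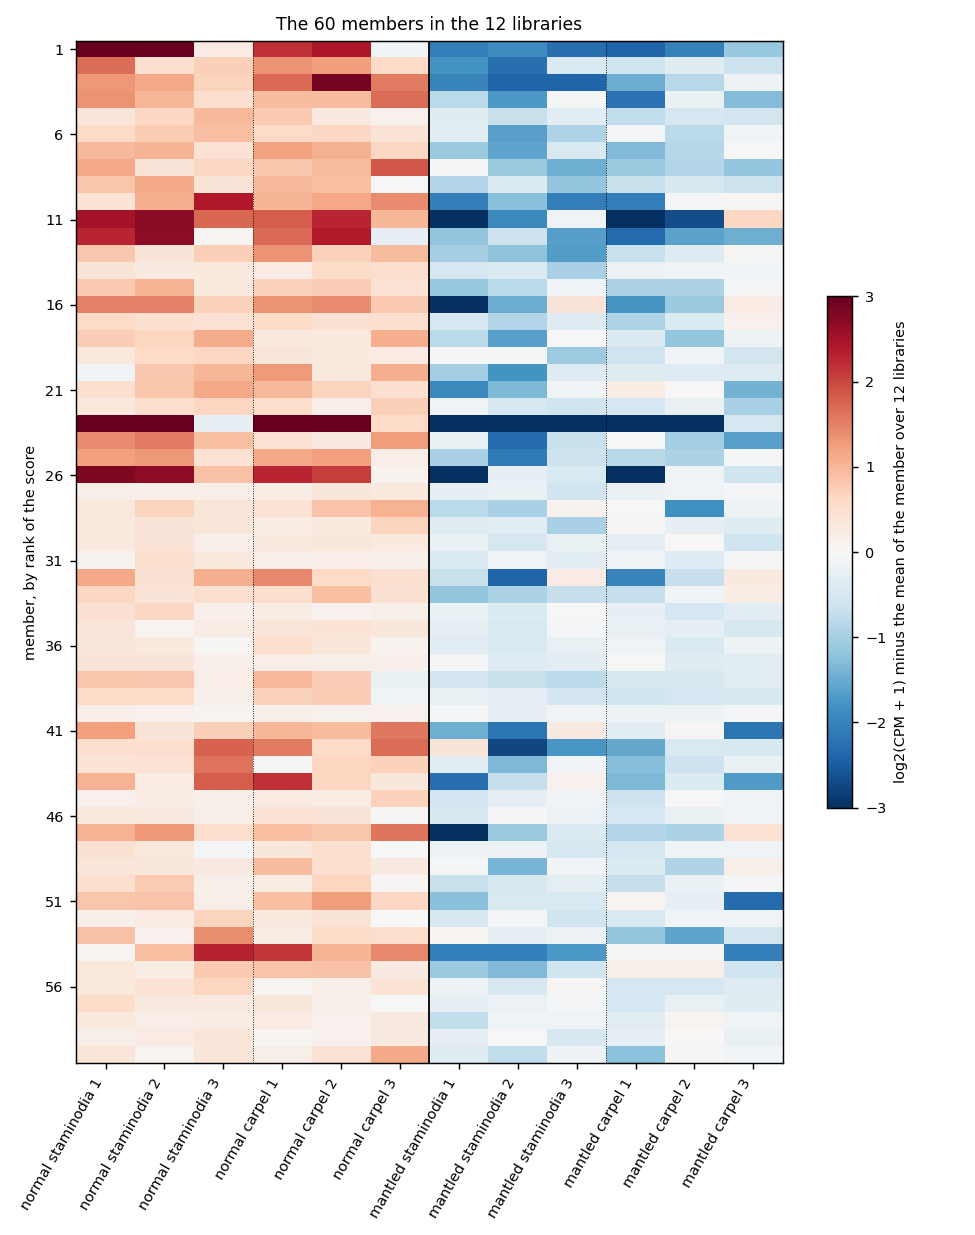
Log2(CPM + 1) of the 60 members (rows, by rank of the score) in the 12 libraries (columns), each row centred on its own mean; colours are capped at 3 log2 units either way. The 6 normal libraries on the left are higher in every row, while a few rows are pale in the third normal replicate of both organs, which is normal palm 2.

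Over the members the median log2 ratio of mantled to normal palms was -1.24 in staminodia, with an SD of 0.19 over the mantled palms, and -1.09 in carpel, with an SD of 0.13. Single members ranged from -7.46 to -0.27 in staminodia and from -5.12 to -0.25 in carpel. The ratio was larger in size in staminodia for 41 members and in carpel for the rest. Both ratios rest on values that the rule used, and the share over all ranked models was not computed. Without mantled palm 1, the palm with the other ID prefix, the medians were -1.27 and -0.93. Without normal palm 1 they were -1.17 and -0.90.

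**Figure D2:**
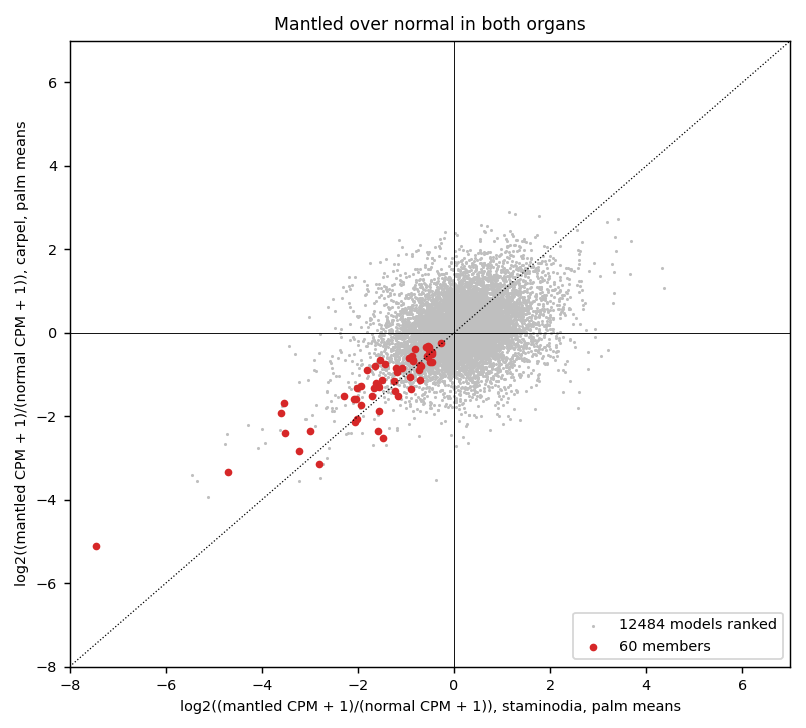
Log2 ratio of mantled to normal palm means (CPM + 1) in staminodia (x axis) and in carpel (y axis) for the 12484 ranked models (grey) and the 60 members (red); the dotted line marks equal ratios. The members lie in the lower left quadrant by construction, from near 0 to -7.46 and -5.12. In 41 of the 60 the difference is larger in staminodia, a count without its share over all ranked models.

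The normal level exceeded the mantled level, as means over palms and both organs, by a median of 2.31-fold, with a range from 1.20-fold to 86.3-fold. In 25 members the fold was under 2, in 21 it was 2 to under 4, in 7 it was 4 to under 8, and in 7 it was 8 or more. The median normal level was 193 CPM in the class under 2-fold, 41.7 CPM at 2 to under 4, 19.9 CPM at 4 to under 8 and 53.1 CPM at 8 or more, so it was highest in the class of smallest folds and did not fall steadily from there. The score rewards evenness across libraries as much as size, which is how a 1.20-fold difference could enter. In all, 25 members had at least 100 CPM in every normal library, and 13 stayed under 10 CPM in every mantled library. Reads were absent from at least 1 mantled library in 6 members, and from no normal library in any member. A count of 0 in a library allows up to 3 reads, or 0.372 to 1.41 CPM depending on the library, for counting error only.

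The highest score, 1.06, belonged to p5_sc00008_cds_513. Its normal staminodia libraries held 190, 187 and 19.0 CPM and its normal carpel libraries 75.5, 89.7 and 14.9 CPM. Its mantled staminodia libraries held 3.01, 3.52 and 2.51 CPM and its mantled carpel libraries 2.19, 3.10 and 6.60 CPM. The mantled libraries were uniformly low, while normal palm 1 stood well above normal palm 2 in both organs. The palm means were 104 ± 120 CPM in normal and 3.01 ± 0.50 CPM in mantled staminodia, a 34.5-fold ratio, and 49.4 ± 48.8 against 3.96 ± 2.33 CPM in carpel, a 12.5-fold ratio. The SDs of the normal means were about as large as the means themselves.

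The model next in score, p5_sc00001_cds_354 (0.86), differed less between the normal palms. It had 32.2, 13.9 and 16.3 CPM in normal staminodia and 25.7, 23.9 and 14.9 CPM in normal carpel. In mantled staminodia it had 2.00, 1.17 and 6.78 CPM, and in mantled carpel 5.91, 7.19 and 5.66 CPM. Its staminodia means were 20.1 ± 5.44 and 3.32 ± 3.03 CPM, 6.05-fold apart, and its carpel means 19.8 ± 6.91 and 6.25 ± 0.82 CPM, 3.16-fold apart. Its lowest normal library, at 13.9 CPM, stood closer to its highest mantled library, at 7.19 CPM, than the means did to each other.

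The members of highest normal level differed by small ratios. maker-p5_sc00012-augustus-gene-4.39-mRNA-1:cds had 4683, 4717 and 4023 CPM in normal staminodia, 4128, 4049 and 4002 CPM in normal carpel, 3461, 2744 and 2860 CPM in mantled staminodia and 3646, 2784 and 2846 CPM in mantled carpel. Mantled palm 1 was the highest mantled palm in both organs, and by construction lay below all normal libraries. The normal level was 1.44-fold the mantled level in staminodia and 1.31-fold in carpel. maker-p5_sc00004-snap-gene-72.54-mRNA-1:cds had 3140, 2972 and 2867 CPM in normal staminodia, 3079, 2941 and 3002 CPM in normal carpel, 2602, 2232 and 2544 CPM in mantled staminodia and 2447, 2468 and 2633 CPM in mantled carpel. Its ratios, 1.21-fold and 1.19-fold, were the smallest among the members, and its library groups stood apart by construction, as in every member. The lowest of these libraries, mantled staminodia 2, held 5713 reads of the latter model.

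At the other end were members that were nearly absent from mantled staminodia. p5_sc00053_cds_237 gave 50, 36 and 16 reads in normal staminodia (12.1, 10.6 and 7.43 CPM) and 50, 167 and 34 reads in normal carpel (16.3, 37.7 and 14.5 CPM). In mantled staminodia it gave 1, 0 and 0 reads, and in mantled carpel 4, 16 and 8 reads (0.88, 1.98 and 3.77 CPM). Only mantled palm 1 had a read in staminodia, whereas all mantled carpel libraries had some. The pooled normal over mantled ratio in staminodia was 101-fold with an exact 95% counting interval of 17.7 to 4010, and the carpel means were 21.7 ± 10.2 and 2.21 ± 1.46 CPM, 9.82-fold apart.

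p5_sc00001_cds_944 was similar, with 14, 23 and 42 reads in normal staminodia, 52, 33 and 24 in normal carpel, 0, 0 and 1 in mantled staminodia and 14, 26 and 0 in mantled carpel. Its pooled staminodia ratio of 77.9-fold had a counting interval of 13.6 to 3115. Pooled ratios take the summed reads of a group over its summed library totals, so they differ from ratios of palm means. The carpel library without reads was mantled carpel 3, the least deep of all, so that 0 reads there allow up to 1.41 CPM. In CPM the normal libraries ranged from 3.39 to 19.5 and the mantled ones from 0 to 3.22, so the groups came close to touching. p5_sc00029_cds_408 had 19, 27 and 46 reads in normal staminodia, 23, 37 and 24 in normal carpel, 0, 2 and 0 in mantled staminodia and 0, 25 and 7 in mantled carpel. It was absent from both organs of mantled palm 1, and its pooled staminodia ratio was 45.4-fold with an interval of 12.2 to 380. Intervals and floors cover counting error only, since no molecular identifiers are named and reads are not independent molecules.

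**Figure D3:**
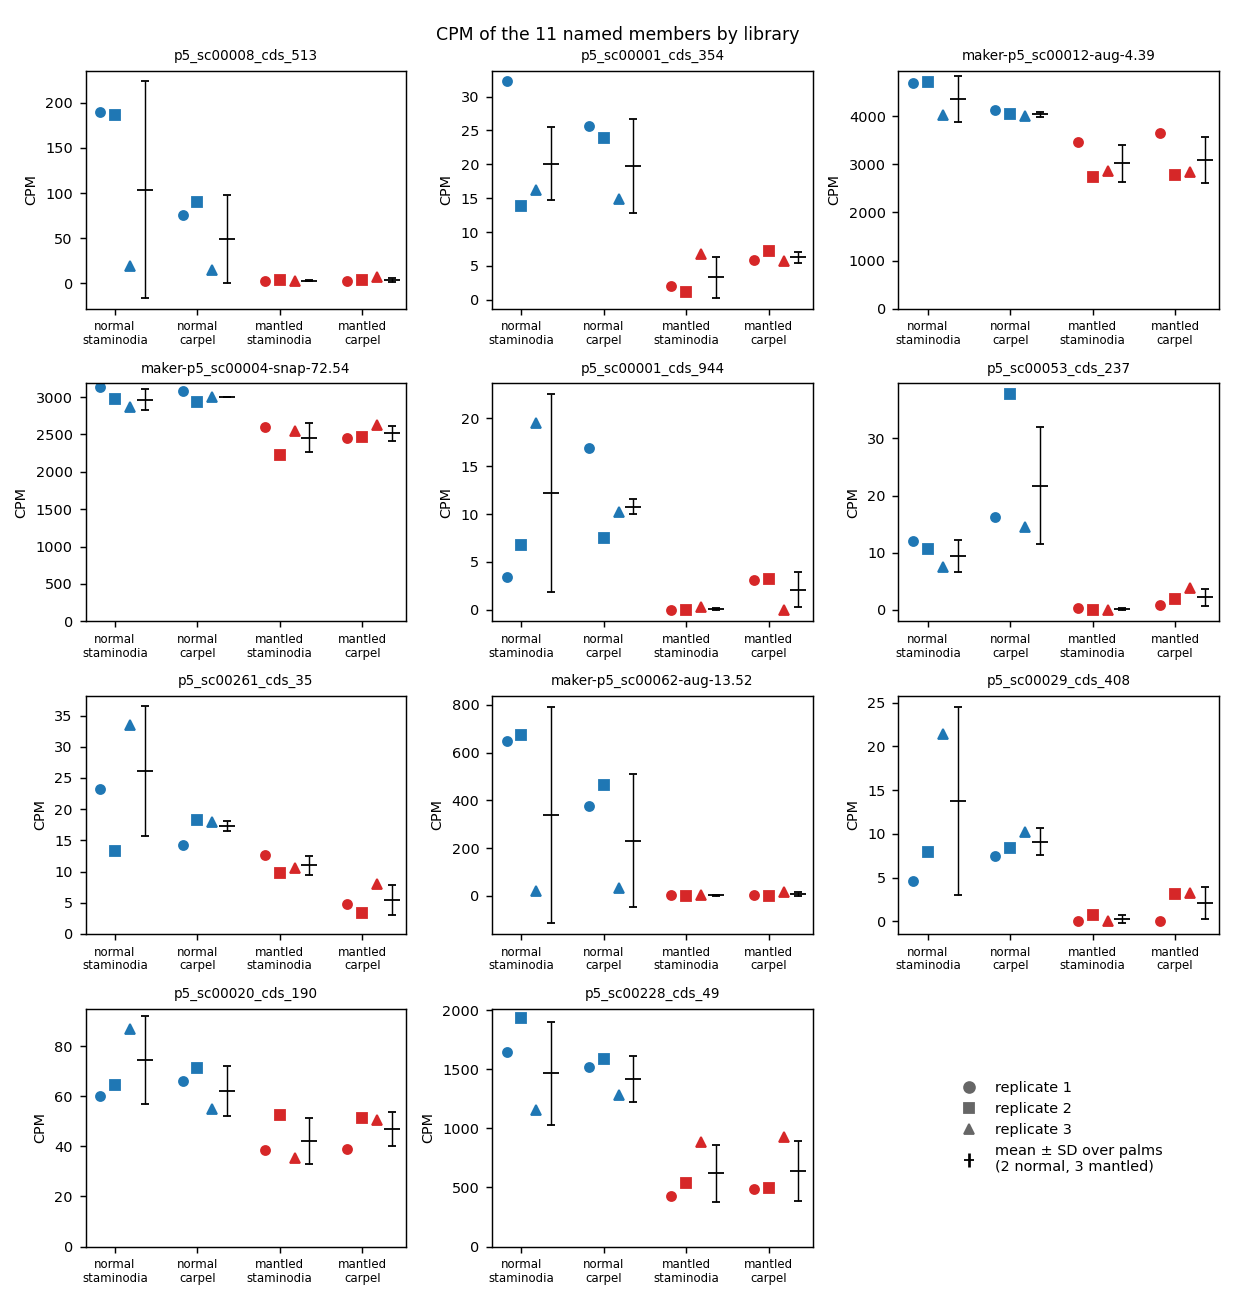
CPM of the 11 members named by rule, by library, with the mean ± SD over palms (2 normal, 3 mantled) beside each group; each panel has its own axis. Normal palm 2 (the third normal replicate, triangle) falls far below normal palm 1 in p5_sc00008_cds_513 and in gene-13.52 of scaffold p5_sc00062. The 2 most abundant members in the upper rows show no fall of that size. The mantled libraries of gene-4.39 of scaffold p5_sc00012 still ran from 2744 to 3646 CPM.

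The normal palms differed strongly in a few members. The ratio of normal palm 1 to normal palm 2, over both organs, was 2 or more in 4 members and 0.5 or less in 1, and its median was 1.02. The largest was 21.2, in maker-p5_sc00062-augustus-gene-13.52-mRNA-1:cds. This model had 648, 674 and 18.1 CPM in normal staminodia and 374, 464 and 33.2 CPM in normal carpel. It had 1.002, 0.781 and 1.005 CPM in mantled staminodia and 1.53, 0.37 and 15.1 CPM in mantled carpel. Normal palm 2 thus lay nearer to mantled carpel 3 than to normal palm 1. Its overall fold of 86.3, the largest among the members, was set by normal palm 1. With normal palm 2 as the only normal palm its log2 ratio was -3.31 in staminodia and -2.36 in carpel, against -7.46 and -5.12 with both.

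The other 3 members with a high ratio were p5_sc00008_cds_513 (8.03), described above, p5_sc32747_cds_1 (5.51) and p5_sc35844_cds_1 (3.93); the last pair was named after its values were seen. p5_sc32747_cds_1 had 87.5, 116 and 18.1 CPM in normal staminodia, 58.2, 93.5 and 14.5 CPM in normal carpel, and 2.63 to 10.9 CPM in the mantled libraries. p5_sc35844_cds_1 had 177, 165 and 46.0 CPM in normal staminodia and 123, 107 and 26.4 CPM in normal carpel. Its reads were 0, 53 and 70 in mantled staminodia and 0, 180 and 34 in mantled carpel. It was at 0 in both organs of mantled palm 1 and between 16.03 and 22.3 CPM in the other mantled libraries, so its level differed among mantled palms as well as between normal ones. The part of the ID prefix in this was not tested. The reverse case, p5_sc00029_cds_408, had a palm ratio of 0.45, with 4.61 and 7.96 CPM in the libraries of normal palm 1 and 21.4 CPM in that of normal palm 2 for staminodia.

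Most members did not behave in this way. The median absolute log2 difference was 0.18 between the libraries of normal palm 1, against 0.39 over all ranked models, 0.44 between the normal palms (0.70 over all) and 0.52 between pairs of mantled palms (0.65 over all). The same measure between mantled and normal palms was 1.16 (0.43 over all). In 0 members was the gap between the normal palms larger than that between mantled and normal palms, and the share over all ranked models was not computed. A small spread within groups is part of what the score selects, so these values describe the choice.

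**Figure D4:**
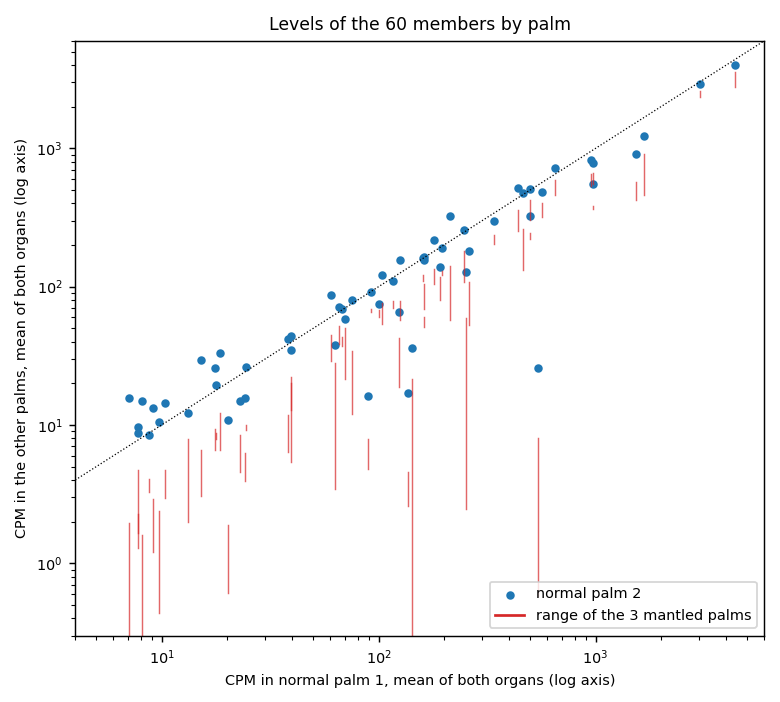
CPM of the 60 members in normal palm 1 (x axis, log) against normal palm 2 (blue points, y axis, log), each as the mean of both organs, with a red line for the range of the 3 mantled palms, cut off at the lower edge where a palm is near 0. Most blue points follow the dotted line of equal levels, and 4 fall below it at ratios of 3.93 to 21.2.

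Normal palm 1 was the higher of the normal palms in both organs in 25 members (41.7%, against 31.6% of all ranked models), and normal palm 2 in 11 (18.3%, against 26%). The lowest normal library, which sets the score, came from normal palm 1 in 29 members (48.3%, against 45% of all ranked models) and from normal palm 2 in 31 (51.7%, against 55%). The highest mantled library came from mantled palm 3 in 32 members (53.3%, against 42.9%), from mantled palm 2 in 15 (25%, against 27.1%) and from mantled palm 1 in 13 (21.7%, against 30%). Mantled palm 3 was the highest mantled palm in both organs in 14 members (23.3%, against 19.2% of all ranked models) and the lowest in both in 3 (5%, against 18%). Mantled palm 1 was the highest in both organs in 3 members (5%, against 13.8%) and mantled palm 2 in 5 (8.33%, against 17%). The full order of the mantled palms was the same in both organs in 12 members (20%, against 30.2%). The score rests on the highest mantled and the lowest normal library, so these shares are not independent of the choice. Mantled palm 3 often held the highest mantled library over all ranked models too. Its median level over the members was 47.6 CPM, against 39.7 in mantled palm 1 and 41.4 in mantled palm 2.

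p5_sc00228_cds_49, one of the members with most parts, was measured at high depth. It had 1644, 1937 and 1158 CPM in normal staminodia, 1520, 1587 and 1284 CPM in normal carpel, 429, 541 and 887 CPM in mantled staminodia and 489, 493 and 929 CPM in mantled carpel. Mantled palm 3 was well above the other mantled palms in both organs, and normal palm 2 was the lower normal palm in both. By construction the groups did not overlap. The means were 1467 ± 437 and 619 ± 239 CPM in staminodia, 2.37-fold apart, and 1422 ± 195 and 637 ± 253 CPM in carpel, 2.23-fold apart.

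The comparison of staminodia with carpel within mantled palms asks whether the members differ between the pseudocarpel initials and the carpel of the same palms. The rule did not set these organs against each other, but it took the highest mantled library of either organ. It therefore favours members with even levels in the mantled organs, and the values below are not independent of the choice. Over the members the median log2 ratio of staminodia to carpel in mantled palms was -0.15, with an SD of 0.09 over palms, against -0.08 over all ranked models. In edgeR's quasi-likelihood fit over all models, with palm as a block, 0 of the 60 members were called at an adjusted p under 0.05, beside 25 of 16800 models (0.149%), of which 14 were higher in staminodia (0.0833%) and 11 in carpel (0.0655%). Unadjusted p-values were under 0.05 in 5 members and in 833 models (4.96%). DESeq2 also called 0 members, beside 0.524% of the 16800 models. It gave an adjusted p for only 5074 of these models, and none for 23 members, so the others could not be called. Limma voom called 0, beside 0.327%. With so small a share called over all models, the count of 0 says nothing particular to the members, and it does not show that the organs are alike. With all mantled palms kept, 1 member was called with no filter on low counts (0.319% of models) and 2 without normal replicate 3 (0.691%).

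The member of smallest p in this contrast was maker-p5_sc00019-augustus-gene-37.64-mRNA-1:cds, named after its values were seen. Its mantled staminodia libraries held 239, 94.9 and 156 CPM and its mantled carpel libraries 285, 169 and 281 CPM. Carpel was the higher organ in all 3 mantled palms, with a fitted log2 difference of -0.60 ± 0.17 (SE) and an edgeR adjusted p of 0.19. The lowest fitted value was that of p5_sc00053_cds_237, -3.88 ± 1.67 (edgeR adjusted p = 0.81), which rests on 1 read in staminodia against 28 in carpel. Its pooled carpel over staminodia ratio was 18.1-fold with a counting interval of 2.99 to 740. The highest was that of p5_sc00261_cds_35, 1.16 ± 0.74 (edgeR adjusted p = 1), with 12.7, 9.77 and 10.6 CPM in mantled staminodia and 4.82, 3.35 and 8.01 CPM in mantled carpel. In these libraries its mantled organs did not overlap.

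maker-p5_sc00062-augustus-gene-13.52-mRNA-1:cds changed its call with the libraries used. Its fitted log2 difference of staminodia to carpel in mantled palms was -2.33 ± 0.77 (edgeR adjusted p = 0.55), and -1.27 by DESeq2. The edgeR adjusted p was 0.00106 without mantled replicate 2, 0.000393 without normal replicate 3 and 0.0026 with no filter on low counts, and the highest over all alternatives was 1. Without mantled replicate 3 the log2 difference was -0.0043. Of its 42 reads in mantled carpel 32 came from mantled carpel 3, and in mantled palm 2 it was not lower in staminodia. Over the set, 13 members were higher in carpel in every mantled palm (21.7%, against 18.1% of ranked models) and 4 were higher in staminodia in every mantled palm (6.67%, against 12.5%). Every mantled carpel library lay above every mantled staminodia library in 7 members (11.7%, against 5.5%), and the reverse held in 1 (1.67%, against 3.12%).

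In normal palms the rule had removed models with staminodia above carpel in every library, so the organ values there are a description only. The median log2 ratio of staminodia to carpel was 0.02 over the members, against -0.07 over all ranked models. It was 0.07 under TMM scaling and -0.02 without normal replicate 3, so its sign followed the libraries used. Staminodia was higher in both normal palms in 16 members (26.7%, against 18.7%) and carpel in 15 (25%, against 32.4%). Every normal carpel library lay above every normal staminodia library in 3 members (5%, against 7.46%). Opposite organ differences in every normal and every mantled palm were found in 2 members (5.59% of ranked models). The organ ratio of the palm means was between 0.5 and 2 in 58 members in normal palms and in 54 in mantled palms.

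The test of mantled against normal palms used the same contrast as the rule, so its calls are given only beside their background and nothing is read from them. In staminodia edgeR called 0 of the 60 members lower, beside 2 of 15050 models (0.0133%), with 38 members at an unadjusted p under 0.05 (4.38% of models in either direction). DESeq2 called 10 members lower, beside 0.166% of models, and limma voom 10, beside 0.179%. In carpel edgeR called 0 of the 60, beside 0 of 16191 models (0%), with 33 members at an unadjusted p under 0.05 (3.75% of models in either direction). DESeq2 called 1 and limma voom 2, each beside 0.0247% of models. The groups hold 2 and 3 palms.

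Many models are deposited in several parts, going by the form of their IDs, and the parts show where along a model the reads lay. In 22 members at least 2 parts held 10 or more reads over the 12 libraries, 110 parts in all. Of these, 74 had a lower mantled mean in both organs (67.3%, against 24.4% of 33065 parts of 6484 ranked models), and 14 had every normal library above every mantled one (12.7%, against 0.197% of those parts). The parts of a model add up to the sum on which it was chosen, so this is a description. The part with most reads was lower in both organs in 21 of the 22 members and held a median of 64.4% of the reads. Among parts with 100 or more reads 43 of 56 were lower in both organs, and among those with fewer, 31 of 54. Every counted part was lower in both organs in 6 members, and in 11 no counted part had every normal library above every mantled one. The shares of such members among all models were not computed.

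In p5_sc00228_cds_49 the difference in means lay in most counted parts. Of its 10 counted parts 8 were lower in mantled palms in both organs, among them part 13 with 28611 reads, at log2 -1.27 in staminodia and -1.22 in carpel. Part 11, with 9551 reads, was at -1.55 and -1.09, but its libraries overlapped. Its lowest normal library held 234 CPM and its highest mantled library 244 CPM. Part 3, with 165 reads, was the one with a higher mantled mean in both organs, at 0.22 and 0.27, while part 4 with 192 reads was at -1.52 in staminodia and 0.24 in carpel. In p5_sc00020_cds_190, the member with most counted parts (12), the parts were mixed. Part 18 with 1022 reads was at -1.02 and -0.43, and part 9 with 720 reads at -0.53 and -0.85. Part 12 with 61 reads went the other way, at 1.62 and 0.63, and so did part 11 with 53 reads, at 0.53 and 0.62. This model as a whole had 59.9, 64.6 and 86.8 CPM in normal staminodia, 66.1, 71.4 and 54.9 in normal carpel, 38.4, 52.3 and 35.2 in mantled staminodia and 39.0, 51.2 and 50.4 in mantled carpel. Its highest mantled library and lowest normal library, 52.3 and 54.9 CPM, were close, as its low rank implies.

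**Figure D5:**
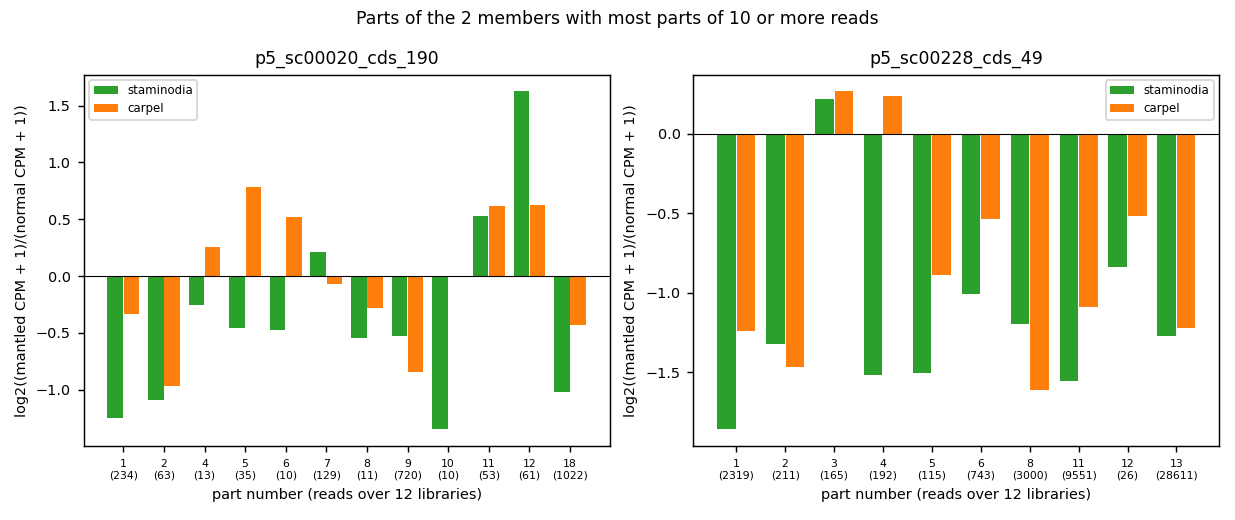
Log2 ratio of mantled to normal palm means (CPM + 1) in staminodia (green) and carpel (orange) for each part with 10 or more reads in p5_sc00020_cds_190 and p5_sc00228_cds_49; reads over the 12 libraries are in brackets and the axes differ. The parts with most reads, 18 and 9 on the left and 13 and 11 on the right, lie below 0 in both organs, while parts with few reads scatter to both sides.

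The IDs gave few other features in common. The members lay on 49 scaffolds, 8 of which held more than 1, and p5_sc00001 was among those with most, 3. In the numbered ID series no pair of the 37 members was within 5 model numbers of each other. Of 38 models that close to a member and kept by the CPM minimum, 11 had a lower mantled mean in both organs (28.9%, against 23.5% of ranked models). Every normal library lay above every mantled one in 0 of the 38, to which the exclusion by normal organs was not applied. Their median log2 ratios of 0.11 in staminodia and 0.10 in carpel were near those of all models. The gene predictors named in the IDs had about the same shares as among ranked models, for example 61.7% against 61.9% for the numbered series and 21.7% against 21.2% for maker augustus models.

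At the threshold the choice was fine. The last member by score, maker-p5_sc00027-snap-gene-50.71-mRNA-1:cds, had a score of 0.037, with 51.9 CPM in its lowest normal and 50.6 CPM in its highest mantled library. The first model outside, p5_sc00054_cds_376, had a score of 0.035, with 40.4 and 39.4 CPM. Another 11 models beyond the 60 had non-overlapping libraries in the same direction, and they were left out only by their rank.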

How the data were processed

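Per the labels, RNA from laser-captured organs was treated with DNase, depleted of ribosomal RNA and made into stranded libraries, sequenced as paired ends of unlike lengths on HiSeq or MiSeq instruments. Which library had which is not given. The submitters' processing notes name HTSeq 0.6.1p1, TopHat2 2.0.13, cutadapt, Trim Galore and CASAVA 1.8.2, without their roles. Not given in the sources used here were genome build, annotation and strand setting. Reads of overlapping or antisense genes may therefore be assigned to the wrong gene or left out as ambiguous. The authors deposited raw read counts for 100342 features per library. Rows that name no feature (46.9% to 50.5% without a feature, 10.9% to 14.3% ambiguous, 5.78% to 16.7% not uniquely aligned) were left out of library totals, which were 25.3% to 32.2% of each table. Reads aligned to several places were not assigned, so recent gene copies are undercounted. IDs ending in a part number (92649 features) were summed to models by the form of the ID, a reading that no annotation was at hand to check.

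Levels are CPM of model sums, and log2 ratios use a pseudocount of 1. Tests used edgeR 4.0.16 in R 4.3.3 (TMM, filterByExpr with a minimum count of 10, robust glmQLFit and glmQLFTest, Benjamini-Hochberg over all models tested, threshold 0.05), with libraries of a palm summed. The organ fit took all 5 palms with palm as a block, because both organs carry the same palm ID; their deviations from the group mean correlated at 0.31, 0.48 and 0.30 in the mantled palms and 0.17 in the normal palms. Its median prior degrees of freedom were 37.6, so most p-values lean on the spread shared by all models. Each SE printed with an edgeR value was back-calculated. It is the size of the log2 difference over the square root of the F statistic of its test. Normal replicates 1 and 2 share an inflorescence. Alternatives used DESeq2 1.42.0, limma 3.58.1 and Python 3.11.15 (pandas 2.3.3, numpy 2.4.6), with figures from matplotlib 3.10.9. The scripts were tested on simulated data.

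The members, lists and tests were chosen with earlier results of these data known. The rule for named members took the 2 of highest score, of highest normal level, of lowest mantled level and with most counted parts, the extremes of the mantled organ difference and of the ratio between normal palms, and the models at the threshold. A gene could meet more than 1 of these.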

Additional observations from a re-analysis of the deposited data

Results flagged for a closer look

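In 2 members every normal palm and every mantled palm had opposite organ differences. In maker-p5_sc00019-augustus-gene-37.64-mRNA-1:cds the mean log2 ratio of staminodia to carpel over palms was 0.279 in normal and -0.642 in mantled palms. Its normal libraries held 451, 503 and 554 CPM in staminodia and 440, 461 and 394 CPM in carpel. The difference between the phenotypes in the edgeR fit was -0.95 ± 0.26 (SE) with an adjusted p of 0.85, in all 5 palms, and the adjusted p over the alternatives ran from 0.033 to 1. The lowest came without normal palm 1, which leaves a single normal palm, and in that fit 499 of 17811 models were called (2.8%), against 2 of 16800 with all palms (0.0119%). In p5_sc00149_cds_66 the ratio was 0.157 in normal and -0.625 in mantled palms, and the edgeR difference was -0.81 ± 0.49 with an adjusted p of 1. This model had 125, 132 and 71.0 CPM in normal staminodia, 116, 125 and 60.01 in normal carpel, 26.1, 11.3 and 33.9 in mantled staminodia and 28.9, 26.5 and 50.9 in mantled carpel. Among all ranked models 698 (5.59%) had such opposite differences, a larger share than the 2 of 60 members. Neither p passed the threshold in the fit of all libraries. Groups of 3 libraries are too small for the search for libraries that stand apart.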

How the results depend on the processing

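Membership followed single libraries, since the score rests on the lowest normal and the highest mantled one. Leaving out replicates kept 4 to 46 of the 60 members among the 60 highest scores: normal replicate 3 left out kept 13, mantled replicate 3 left out kept 16, and normal palm 1 left out kept 4. Ranking features as deposited kept 39. No member was kept in all 15 settings of the rule.

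Members called in the mantled organ difference numbered 1 with no filter (0.319% of models), 1 on features as deposited (0.167%) and 0 to 2 with a replicate left out, among them 1 without mantled replicate 2 (0.226%) and 2 without normal replicate 3 (0.691%), namely maker-p5_sc00062-augustus-gene-13.52-mRNA-1:cds and maker-p5_sc00040-snap-gene-4.19-mRNA-1:cds; with no replicate block the count was 0. Members called lower in mantled staminodia numbered 10 by DESeq2, 10 by limma voom, 11 with no filter (0.204%), 2 on features (0.0351%), 5 with each library as a replicate (0.0905%), 1 with all 4 groups in 1 fit (0.0238%) and 0 to 6 with a replicate left out (6, beside 0.183%, without normal replicate 3). In carpel they numbered 1 by DESeq2, 2 by limma voom, 8 with no filter (0.0821%) and 0 to 2 with a replicate left out (2, beside 0.028%, without normal replicate 3). The cause was not tested.

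With a pseudocount of 5 the median log2 ratios were -0.95 in staminodia and -0.87 in carpel, and the carpel median ran from -1.12 to -0.93 with a replicate left out and was -0.90 without normal palm 1. The normal organ median was 0.073 under TMM, 0.076 under median-ratio scaling and -0.017 to 0.048 with a replicate left out. The sign of the mantled to normal medians is fixed by the choice of members. Depth limits the low members: 13 had a normal mean of 20 CPM or less.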
